A study of Homo sapiens with 24 samples.

Results

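Glycogen synthesis and breakdown depend on a small set of enzymes and targeting proteins, and 9 genes that encode them were followed here in 4 human cancer cell lines in normoxia and hypoxia. The genes were chosen by symbol, as the rows named GYS1, GBE1, PGM1, UGP2, GYG1, PPP1R3B, PPP1R3C, PYGL and PYGB among the 23106 gene symbols counted. Bulk RNA-seq of polyadenylated RNA was available from A549 cells (lung adenocarcinoma), HCT116 cells (spelled HCT-116 in the labels, colorectal carcinoma), PC3 cells (prostate cancer) and T47D cells (breast cancer). Each line was kept in 21% oxygen (normoxia) or in 0.5% oxygen for 16 h (hypoxia), and 3 replicate libraries of each of the 8 groups gave 24 libraries. No transgene or other treatment is given for any group, so oxygen was the only labelled difference within a line. Culture medium differed with the line (F12K for A549 and PC3 cells, McCoy's 5a for HCT116 cells, DMEM for T47D cells), so line and medium cannot be told apart. The study states that each RNA-seq assay was run in triplicate under ENCODE guidelines, but not whether the replicates were separate cultures, and p values therefore measure the spread between these libraries, which may be technical.

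Glycogen is a branched glucose polymer that serves as a local store of fuel. In its synthesis, glucose-6-phosphate is turned into glucose-1-phosphate by phosphoglucomutase (PGM1), activated to UDP-glucose by UGP2, added to a primer made by glycogenin (GYG1), extended by glycogen synthase (GYS1) and branched by the branching enzyme (GBE1). The phosphorylases PYGL and PYGB release glucose-1-phosphate again, and PPP1R3B and PPP1R3C bring protein phosphatase 1 to glycogen, where it activates the synthase and inactivates phosphorylase. Cells in low oxygen stabilise the hypoxia-inducible factors (HIFs), which bind DNA at hypoxia response elements and are known to activate genes of glucose metabolism, GYS1 and PPP1R3C among them.

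Between 22698584 and 62850747 counts were held by each library. The floor of detection was taken as 3 counts, which corresponded to between 0.0436 and 0.132 CPM, a unit in which counts are scaled to library size. Such a floor covers counting error only. The known hypoxia markers CA9, EGLN3, ADM and VEGFA were upregulated in all 4 lines, in the direction that the oxygen labels give. ADM is in the study's core list of HIF-bound, hypoxia-induced genes, drawn partly from these same libraries, so its direction is not independent evidence. The study names EGLN3 among genes bound and induced in most but not all of its lines, so the same limit holds for EGLN3. ESR1 and PGR, markers of the luminal breast, were at 166 ± 9.80 and 635 ± 67.2 CPM in normoxic T47D cells (mean ± SD, n = 3), while the intestinal factor CDX2 was at 11.8 ± 1.58 CPM in normoxic HCT116 cells and the prostate factor HOXB13 at 75.1 ± 3.86 CPM in normoxic PC3 cells. Defining markers of the tissue of origin were missing elsewhere: lung markers summed to between 0.121 and 0.688 CPM in A549 libraries, and CDX1 was at 0 counts in every HCT116 library. Transcripts of the epithelial genes EPCAM, KRT8 and KRT18 were present in all 4 lines, and PTPRC, which marks blood cells, reached at most 17 counts in any library. PECAM1, an endothelial marker, reached at most 4 counts outside PC3 cells, where libraries held between 17 and 120. COL1A1, a collagen gene of mesenchymal cells, was at group means between 13.3 and 43.0 CPM and was upregulated in A549 (log2 fold change 0.80, SE 0.18, adjusted p = 0.00483) and PC3 cells (log2 fold change 0.48, SE 0.14, adjusted p = 0.0270), and its part in the values of the members was not tested.

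The deposited counts use the GRCh37 human genome, on which 4 promoters are shown, those of 3 genes whose counts rose in hypoxia and of GYG1, whose counts fell. Each runs from 250 bases before to 50 bases after a RefSeq transcription start site, 5′ to 3′ on the strand of the gene, and its 300 bases matched the chromosome in GRCh37 at a single position. Capitals mark ACGTG or GCGTG, the core letters of the hypoxia response element, on either strand (CACGT or CACGC when read on the opposite strand, with CACGTG holding ACGTG on both strands). PPP1R3C is shown at chr10:93392779-93393078, minus strand, GYS1 at chr19:49496517-49496816, minus strand, GBE1 at chr3:81810747-81811046, minus strand and GYG1 at chr3:148709077-148709376, plus strand.
PPP1R3C: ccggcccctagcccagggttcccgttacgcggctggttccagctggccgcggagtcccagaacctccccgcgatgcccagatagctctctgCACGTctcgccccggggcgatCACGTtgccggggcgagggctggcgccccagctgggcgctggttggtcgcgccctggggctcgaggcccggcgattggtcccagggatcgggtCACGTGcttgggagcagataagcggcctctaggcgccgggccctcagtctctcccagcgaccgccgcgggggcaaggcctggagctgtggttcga
GYS1: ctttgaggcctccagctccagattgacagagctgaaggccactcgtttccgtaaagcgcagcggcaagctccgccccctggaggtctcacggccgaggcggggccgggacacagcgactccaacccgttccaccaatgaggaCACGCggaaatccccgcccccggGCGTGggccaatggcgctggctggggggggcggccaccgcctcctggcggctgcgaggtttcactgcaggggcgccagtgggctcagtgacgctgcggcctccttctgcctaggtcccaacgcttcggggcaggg
GBE1: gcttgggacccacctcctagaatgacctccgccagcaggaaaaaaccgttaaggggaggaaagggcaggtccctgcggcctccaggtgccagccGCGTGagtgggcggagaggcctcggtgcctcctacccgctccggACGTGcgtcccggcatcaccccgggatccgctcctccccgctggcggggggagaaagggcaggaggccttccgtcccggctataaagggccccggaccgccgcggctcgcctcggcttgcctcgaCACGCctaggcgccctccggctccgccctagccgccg
GYG1: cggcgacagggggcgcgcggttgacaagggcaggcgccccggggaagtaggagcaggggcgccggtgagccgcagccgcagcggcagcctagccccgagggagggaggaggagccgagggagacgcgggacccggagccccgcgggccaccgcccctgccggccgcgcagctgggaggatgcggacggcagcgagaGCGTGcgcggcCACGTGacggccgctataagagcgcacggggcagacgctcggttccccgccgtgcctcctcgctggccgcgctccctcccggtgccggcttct
The PPP1R3C promoter held 4 matches, all of them ACGTG, that begin 159, 138, 45 and 44 bases before the start site, and the last 2 overlap as CACGTG. In GYS1 both matches were GCGTG, 108 and 85 bases before the start. GBE1 held GCGTG 156 bases before the start, ACGTG 112 bases before it and GCGTG again 13 bases after it. The promoter of GYG1 also held 3 matches, GCGTG 54 bases before the start and an overlapping ACGTG pair 43 and 42 bases before it. Among the other members the table gave no match for PYGL, 3 for PYGB, 3 at 1 of the 3 start sites of PGM1 and none at the other 2, and 2 and 1 at the 2 start sites of UGP2. PPP1R3B was left out of this search, so its promoter was not examined, and 8 members with 11 start sites remained. Of the 35116 promoters of the same length in the table, 48.4% held ACGTG or GCGTG, 21.4% held ACGTG and 7.3% held CACGTG, so a match was common, and matches occurred in genes that rose and in genes that fell.

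Most of the 9 genes were upregulated by hypoxia in each line. The members were chosen with earlier results of these data known, so their share of calls is a description and not an independent test. In bulk RNA, a change in the RNA of each cell and a change in the share of cells that express a gene cannot be told apart. A gene was called when edgeR's quasi-likelihood test over all genes of a line gave a fold change over 1.2 in either direction at an adjusted p under 0.05, the thresholds of the study. In A549 cells 6 of 9 tested members were upregulated, where 17.6% of the 13897 genes tested were, and 0 were downregulated, against 17.8% of all genes (0 members fell at an unadjusted p under 0.05, and 0 were called with DESeq2). In HCT116 cells 6 of 8 members rose and 2 fell, against 23.3% and 27.0% of 13614 genes. In PC3 cells 5 of 8 members rose and 1 fell, against 16.6% and 15.7% of 13466 genes. In T47D cells 6 of 9 members rose and 1 fell, against 6.55% and 6.69% of 14085 genes. The median log2 fold change of the members was 0.91 in A549, 1.42 in HCT116, 0.54 in PC3 and 1.91 in T47D cells, while that of all genes tested lay between -0.03 and -0.01. The 3 hypoxic libraries lay above all 3 normoxic ones for 6 members in each line, against 23.6% of genes in A549, 32.8% in HCT116, 28.4% in PC3 and 19.0% in T47D cells. They lay below for 0 members in A549 cells and 1 in each other line, against 24.3%, 27.6%, 22.2% and 13.3% of genes in the same order. GYS1, GBE1, PGM1 and PYGL were upregulated in all 4 lines, PYGB in 3, PPP1R3B in 2 and PPP1R3C in both lines in which it was tested, whereas GYG1 was downregulated in 3 lines and UGP2 in 1.

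**Figure D1:**
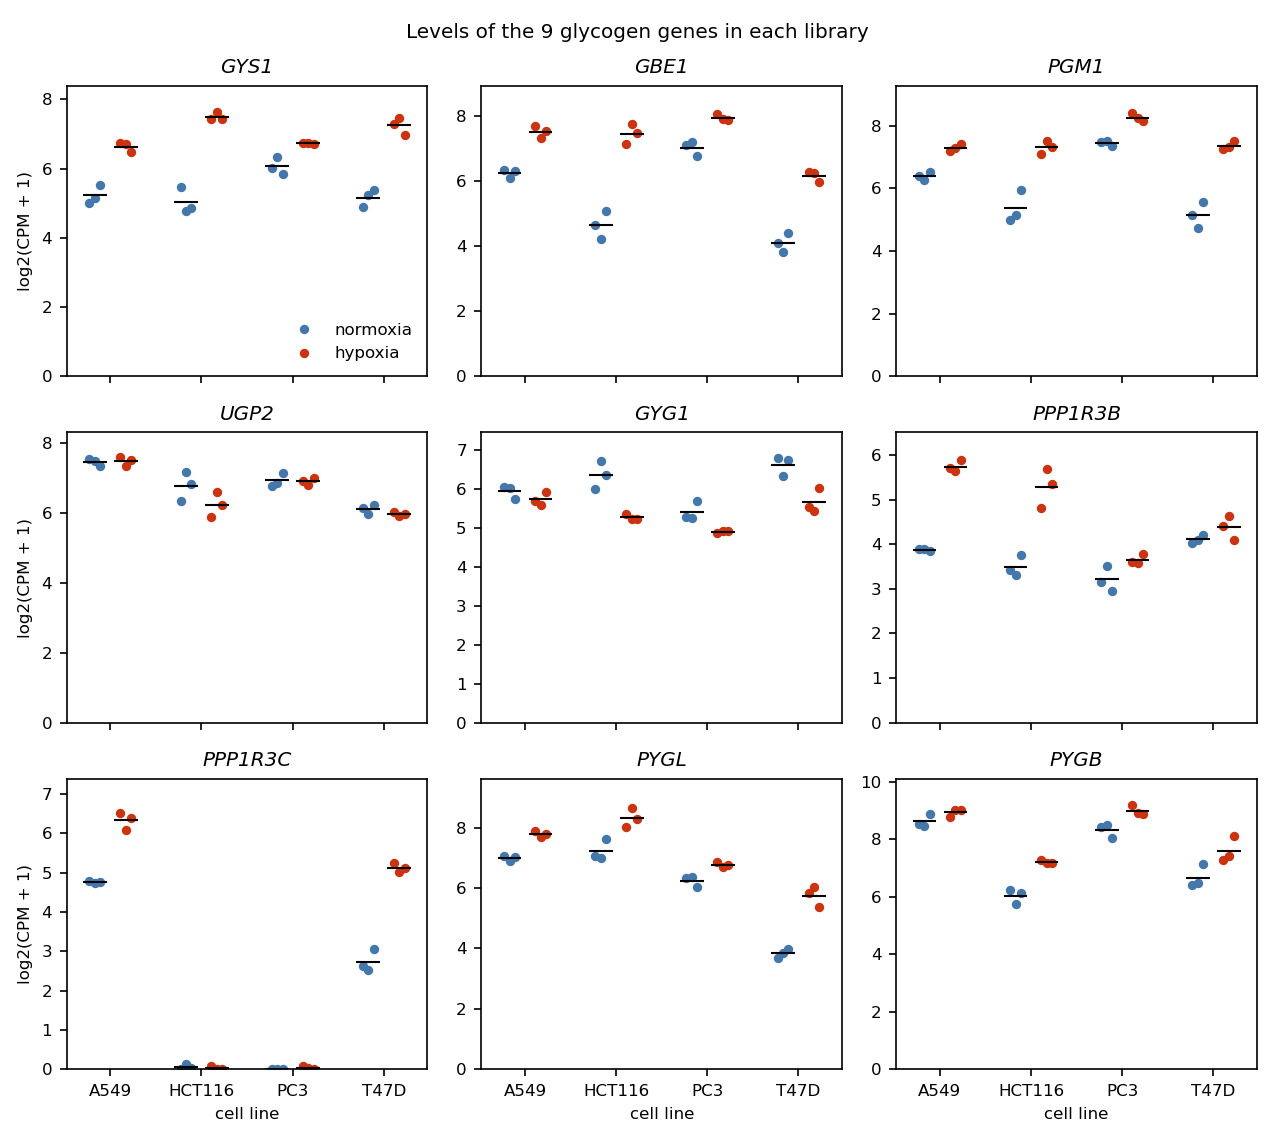
Level of each member in every library, as log2(CPM + 1) on the y axis, by cell line on the x axis; points are the 3 libraries of normoxia (blue) or hypoxia (red) and black lines their mean. Hypoxic points of GYS1, GBE1, PGM1 and PYGL lie above the normoxic ones in all 4 lines, and PPP1R3C lies near 0 in HCT116 and PC3 cells.

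PGM1, which interconverts glucose-6-phosphate and glucose-1-phosphate at the entry to synthesis and the exit from breakdown, is encoded at chr1:64059082-64125916, plus strand. In A549 cells it was at 82.3, 76.3 and 90.5 CPM in the 3 normoxic libraries and at 145, 156 and 169 CPM in hypoxia, a 1.88-fold rise (log2 fold change 0.91, SE 0.11, adjusted p = 1.44e-04). In HCT116 cells the levels were 30.5, 34.7 and 60.8 CPM in normoxia and 136, 181 and 158 CPM in hypoxia (log2 fold change 1.81, SE 0.24, adjusted p = 1.54e-04). Both lines thus had hypoxic libraries above all normoxic ones, with normoxic replicate 3 the highest of its group in each. PC3 cells had the highest PGM1 levels, 178, 181 and 162 CPM in normoxia and 336, 299 and 284 CPM in hypoxia (log2 fold change 0.77, SE 0.10, adjusted p = 0.00130). T47D cells went from 34.1, 25.6 and 46.8 CPM to 151, 159 and 182 CPM, a 4.39-fold rise (log2 fold change 2.13, SE 0.24, adjusted p = 1.41e-04). No group overlapped its counterpart in any line. The exons of PGM1 share 197 bp (4.8% of their length) with ITGB3BP on the opposite strand, and ITGB3BP was downregulated in all 4 lines (log2 fold changes between -2.79 and -0.72). The kit marked strand but the strand setting of the counting was not given, and the part of this overlap in the PGM1 counts was not tested. Smaller overlaps with non-coding genes on the opposite strand cover 4.3% of the exons of PPP1R3B, 4.0% of those of PYGL and 0.4% of those of UGP2.

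UGP2 (chr2:64068086-64118696, plus strand), which makes the UDP-glucose that glycogen synthase uses, did not follow PGM1. Its A549 levels were 184, 180.1 and 163 CPM in normoxia and 194, 162 and 183 CPM in hypoxia (log2 fold change 0.026, SE 0.11, adjusted p = 0.876). PC3 cells had 108, 116 and 141 CPM and 120.3, 111 and 126 CPM in the same order (log2 fold change -0.086, SE 0.12, adjusted p = 0.608). In both lines the groups overlapped and the change did not pass the test. T47D levels of 69.8, 62.0 and 73.6 CPM in normoxia and 64.5, 59.0 and 61.5 CPM in hypoxia likewise overlapped (log2 fold change -0.23, SE 0.18, adjusted p = 0.410). In HCT116 cells UGP2 fell from 79.7, 143 and 114 CPM to 58.2, 96.5 and 74.2 CPM (log2 fold change -0.68, SE 0.24, adjusted p = 0.0332). This was the only UGP2 call, and the groups overlapped, with normoxic replicate 1 below hypoxic replicate 2. The HCT116 call was lost without hypoxic replicate 1 or 3 or normoxic replicate 2 or 3 and with a correction for GC content and length (-0.086, adjusted p = 0.771), and the transcript is 38.9% GC. With the same correction the A549 value passed the test (0.28, adjusted p = 0.0403).

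GYG1 (chr3:148709195-148749562, plus strand), the self-glucosylating primer on which a glycogen particle starts, was the only member that fell in more than 1 line. HCT116 cells had 63.3, 106 and 81.2 CPM in normoxia and 40.1, 36.4 and 36.8 CPM in hypoxia, a level 2.40-fold lower (log2 fold change -1.26, SE 0.21, adjusted p = 4.56e-04). T47D cells went from 111, 80.2 and 106 CPM to 45.7, 42.1 and 64.9 CPM, 2.06-fold lower (log2 fold change -1.04, SE 0.23, adjusted p = 0.0137). All hypoxic libraries lay below all normoxic ones in both lines, and hypoxic replicate 3 was the highest of its T47D group. In PC3 cells the fall was smaller, from 38.2, 37.6 and 50.8 CPM to 28.3, 29.6 and 29.6 CPM (log2 fold change -0.59, SE 0.13, adjusted p = 0.0109). A549 levels of 65.3, 64.8 and 53.0 CPM in normoxia and 50.8, 47.2 and 60.2 CPM in hypoxia overlapped and did not pass the test (log2 fold change -0.22, SE 0.13, adjusted p = 0.203). The T47D call was lost without hypoxic replicate 1 (adjusted p = 0.0550) or normoxic replicate 1 (adjusted p = 0.118) and with the GC content correction (-0.75, adjusted p = 0.0571), which also moved the HCT116 and PC3 values to -0.75 and -0.38 with both calls kept. When T47D libraries were also paired by replicate number, the corrected value was -0.79 and the call was kept (adjusted p = 0.00954). The PC3 call was lost in a single fit of all 24 libraries (adjusted p = 0.0763). GYG1 is 37.3% GC, and 21.8% of its exon length overlaps HLTF on the opposite strand, a gene that was not called in any line (log2 fold changes between -0.38 and -0.11).

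GYS1 (chr19:49471387-49496567, minus strand), the glycogen synthase of muscle and most other tissues, was upregulated in all 4 lines. A549 cells had 31.2, 34.4 and 45.0 CPM in normoxia and 105, 104 and 87.5 CPM in hypoxia (log2 fold change 1.42, SE 0.14, adjusted p = 4.10e-05). In HCT116 cells the same gene went from 42.9, 26.4 and 28.0 CPM to 172, 196 and 172 CPM, a 5.07-fold rise (log2 fold change 2.34, SE 0.23, adjusted p = 3.63e-05). GYS1 stood 93rd from the highest fold change among the 13614 genes tested in that line. PC3 levels were 63.3, 79.3 and 56.5 CPM in normoxia, the highest normoxic values of any line, and 106, 105 and 103 CPM in hypoxia (log2 fold change 0.61, SE 0.11, adjusted p = 0.00483). T47D cells had 28.5, 36.4 and 40.3 CPM in normoxia and 156, 174 and 125 CPM in hypoxia (log2 fold change 2.04, SE 0.21, adjusted p = 8.77e-05). Hypoxic libraries lay above all normoxic ones in each line, by the smallest margin in PC3 cells.

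GBE1 (chr3:81538854-81810796, minus strand), the branching enzyme that puts side chains on the growing polymer, rose along with GYS1. The study placed GBE1 in a core list of hypoxia-induced genes partly from these same libraries, so its direction is not independent evidence. In A549 cells it was at 79.6, 67.4 and 77.9 CPM in normoxia and 206, 161 and 186 CPM in hypoxia (log2 fold change 1.29, SE 0.12, adjusted p = 2.22e-05). HCT116 cells had the largest change of any member in any line, from 24.3, 17.7 and 32.7 CPM to 139.7, 216 and 178 CPM, or 6.61-fold (log2 fold change 2.73, SE 0.25, adjusted p = 2.05e-05). GBE1 stood 57th from the highest fold change in HCT116 cells, and in both lines the groups did not overlap. PC3 cells had 138, 147 and 107 CPM in normoxia and 264, 237 and 232 CPM in hypoxia (log2 fold change 0.85, SE 0.12, adjusted p = 0.00172). T47D cells started lowest, at 16.1, 13.2 and 20.0 CPM, and reached 77.2, 75.1 and 62.1 CPM (log2 fold change 2.04, SE 0.21, adjusted p = 7.72e-05). The hypoxic T47D libraries stayed below or within the range of normoxic A549 libraries and below all normoxic PC3 libraries.

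**Figure D2:**
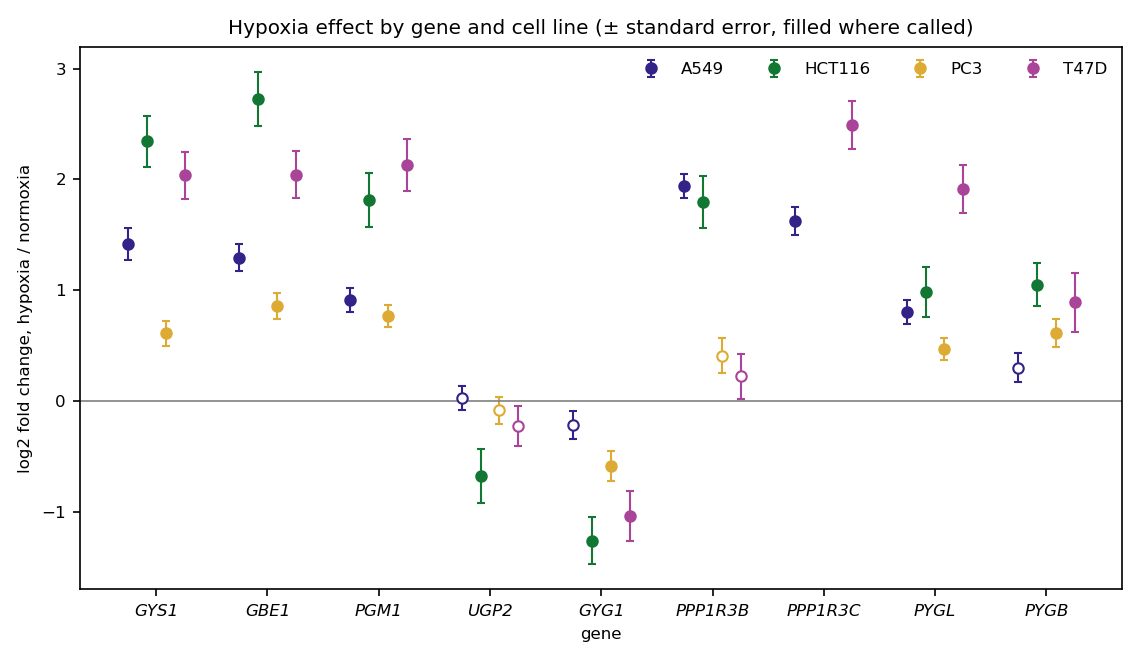
Hypoxia effect on each member as log2 fold change of hypoxia over normoxia (y axis), by gene (x axis) and cell line (color), with the standard error as bars; filled points were called up- or downregulated and open points were not. GBE1 in HCT116 cells is the highest point at 2.73, and the points below 0 are those of GYG1 and UGP2.

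Of the targeting subunits, PPP1R3B (chr8:8993765-9009084, minus strand) is the one best known from liver and PPP1R3C (chr10:93388199-93392828, minus strand), also called PTG, is more widely expressed. PPP1R3B in A549 cells was at 13.8, 13.7 and 13.3 CPM in normoxia and 51.1, 48.7 and 57.7 CPM in hypoxia, a 3.84-fold rise (log2 fold change 1.94, SE 0.11, adjusted p = 3.73e-07). In HCT116 cells it went from 9.75, 8.87 and 12.5 CPM to 27.0, 50.5 and 39.9 CPM (log2 fold change 1.80, SE 0.24, adjusted p = 1.45e-04). Groups did not overlap in either line, and the normoxic A549 libraries lay close together while the hypoxic HCT116 libraries were spread between 27.0 and 50.5 CPM. PC3 levels of 7.95, 10.5 and 6.78 CPM in normoxia and 11.0, 11.0 and 12.7 CPM in hypoxia did not overlap but did not pass the test (log2 fold change 0.41, SE 0.16, adjusted p = 0.0736). T47D levels were 15.3, 16.1 and 17.5 CPM and 20.4, 23.96 and 16.1 CPM, overlapping, and did not pass it either (log2 fold change 0.22, SE 0.20, adjusted p = 0.481). Without normoxic replicate 2 the PC3 value was 0.58 (adjusted p = 0.0125).

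PPP1R3C was expressed in A549 and T47D cells. A549 libraries held 26.4, 25.5 and 26.3 CPM in normoxia and 90.8, 67.6 and 83.5 CPM in hypoxia (log2 fold change 1.62, SE 0.12, adjusted p = 3.97e-06). T47D libraries rose 5.61-fold, from 5.20, 4.79 and 7.28 CPM to 36.7, 31.7 and 33.8 CPM (log2 fold change 2.49, SE 0.22, adjusted p = 1.81e-05). This was the largest change of any member in T47D cells, 117th from the highest of 14085 genes, and in both lines the groups did not overlap. In HCT116 cells the libraries held 0, 4 and 1 counts in normoxia and 3, 0 and 0 in hypoxia, and in PC3 cells 0, 0 and 0 in normoxia and 2, 1 and 0 in hypoxia. PPP1R3C was therefore at or near the floor in these lines, was not tested there, and allowed no fold change. Against the floor of 3 counts per library in normoxic PC3 cells (0.124 CPM at the shallowest library), the mean normoxic level was at least 210-fold higher in A549 and at least 46.3-fold higher in T47D cells. Per kilobase of exon, the scale on which different genes can be compared, PPP1R3C was at 10.3 ± 0.190 and PPP1R3B at 2.38 ± 0.0491 CPM in normoxic A549 cells, and the ratio of PPP1R3C to PPP1R3B was 4.33 ± 0.132 in normoxia and 3.47 ± 0.473 in hypoxia. In T47D cells this ratio was 0.792 ± 0.134 in normoxia and 3.94 ± 0.889 in hypoxia, so PPP1R3C was the lower of the pair in normoxia and the higher in hypoxia.

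**Figure D3:**
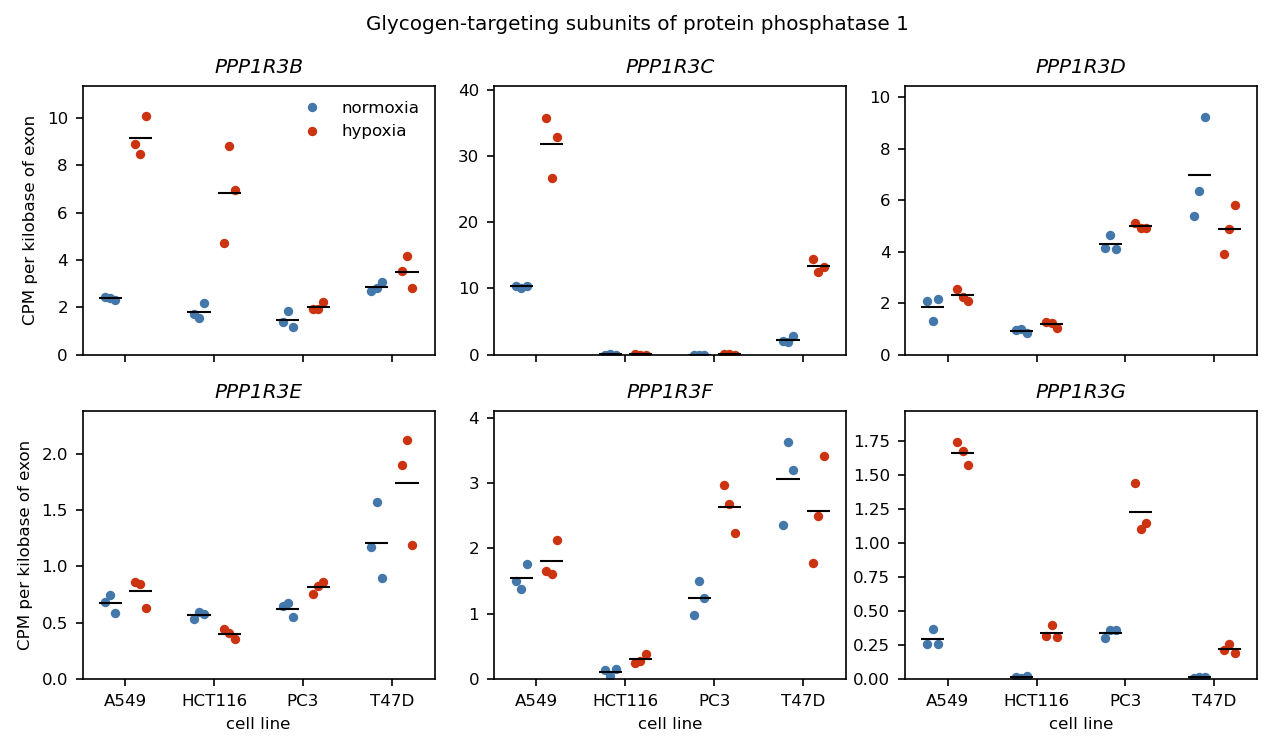
Level of 6 glycogen-targeting subunits of protein phosphatase 1 in every library, as CPM per kilobase of exon (y axis, a separate scale for each gene), by cell line (x axis), with normoxia in blue, hypoxia in red and the group mean as a black line. PPP1R3C is near 0 in HCT116 and PC3 cells, and PPP1R3G is higher in hypoxia in all 4 lines at levels of at most 1.74 CPM per kilobase.

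On the breakdown side, PYGL (chr14:51324609-51411201, minus strand), the liver form of glycogen phosphorylase, was upregulated in all 4 lines. A549 cells had 131, 117 and 129 CPM in normoxia and 237, 204 and 218 CPM in hypoxia (log2 fold change 0.80, SE 0.11, adjusted p = 2.96e-04). HCT116 cells went from 131, 127 and 196 CPM to 259.6, 402 and 311 CPM (log2 fold change 0.98, SE 0.23, adjusted p = 0.00307). Groups did not overlap in either line, although the HCT116 libraries were spread widely within each oxygen level. PC3 levels were 79.0, 82.0 and 64.7 CPM in normoxia and 114, 102 and 107 CPM in hypoxia (log2 fold change 0.47, SE 0.10, adjusted p = 0.00905). T47D cells had the lowest levels and the largest change, from 11.9, 13.5 and 14.6 CPM to 55.7, 63.8 and 40.0 CPM, or 3.77-fold (log2 fold change 1.91, SE 0.21, adjusted p = 1.58e-04). The hypoxic T47D libraries still lay below every normoxic library of the other 3 lines. The PC3 call was lost in a single fit of all 24 libraries (adjusted p = 0.0826) and in a test against a fold change of 1.2 (adjusted p = 0.0685).

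PYGB (chr20:25228721-25278648, plus strand), the brain form, was upregulated in HCT116, PC3 and T47D cells. HCT116 libraries held 74.5, 53.1 and 68.5 CPM in normoxia and 155, 141 and 144 CPM in hypoxia (log2 fold change 1.05, SE 0.19, adjusted p = 8.06e-04). PC3 libraries rose from 345, 361 and 264 CPM to 580.4, 484 and 469 CPM (log2 fold change 0.61, SE 0.13, adjusted p = 0.00786). In both lines every hypoxic library lay above every normoxic one. T47D libraries held 82.9, 87.7 and 139 CPM in normoxia and 154, 171 and 274 CPM in hypoxia (log2 fold change 0.89, SE 0.27, adjusted p = 0.0458), with replicate 3 the highest of both groups. A549 levels of 368, 351 and 469.6 CPM in normoxia and 434, 517 and 514 CPM in hypoxia overlapped and did not pass the test (log2 fold change 0.30, SE 0.13, adjusted p = 0.0975), but passed it without normoxic replicate 3 (0.44, adjusted p = 0.0140). The T47D call was near the threshold and was lost without hypoxic replicate 3 (0.58, adjusted p = 0.0820), without normoxic replicate 1 or 2 (adjusted p = 0.244 and 0.173), in a test against a fold change of 1.2 (adjusted p = 0.0872), with scaling to total counts (adjusted p = 0.0530) and with the GC content correction (adjusted p = 0.115). With the replicate number as a block, which pairs the T47D libraries, its adjusted p was 0.0101 without the GC content correction and 0.0141 with it. The PC3 call was lost in a single fit of all 24 libraries (adjusted p = 0.0526).

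The make-up of the phosphorylase pair varied with the line. Per kilobase of exon, the ratio of PYGL to PYGB in normoxia was 2.29 ± 0.538 in HCT116 cells, where PYGL was the more abundant form (means ± SD, n = 3). The ratio was 0.315 ± 0.0412 in A549, 0.229 ± 0.00956 in PC3 and 0.131 ± 0.0248 in T47D cells, where PYGB prevailed. In hypoxia it was 2.18 ± 0.576 in HCT116 and 0.207 ± 0.0150 in PC3 cells. The hypoxic ratio was 0.445 ± 0.0786 in A549 and 0.287 ± 0.125 in T47D cells, which puts the PYGL share of the pair at 30.7% against 23.9% in normoxia for A549 and at 21.8% against 11.6% for T47D. The T47D libraries overlapped in this share, at 26.1%, 26.7% and 12.5% in hypoxia and 12.3%, 13.1% and 9.37% in normoxia, with hypoxic replicate 3 inside the normoxic range, whereas the A549 groups did not overlap. These ratios were not tested, and they depend on the exon length: with the longest transcript in place of all exons the normoxic HCT116 ratio was 3.44 and that of T47D 0.197.

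**Figure D4:**
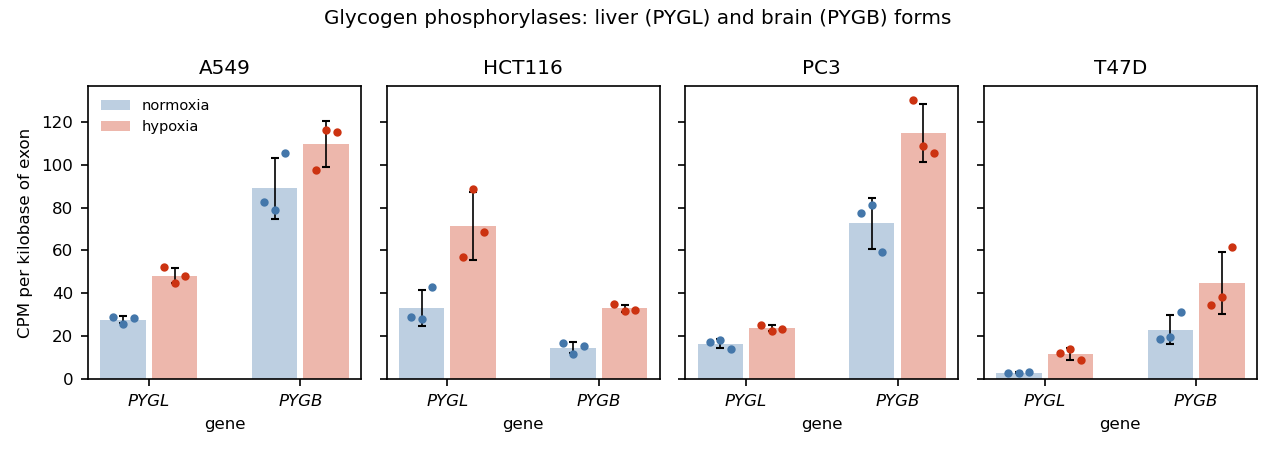
Levels of PYGL and PYGB as CPM per kilobase of exon (y axis) in each cell line, in normoxia (blue) and hypoxia (red); bars are means of 3 libraries, error bars the SD and points the libraries. PYGL exceeds PYGB in HCT116 cells and lies below it in A549, PC3 and T47D cells.

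Whether the change in hypoxia differed in extent among the 4 lines was asked with an interaction term in a single edgeR fit of all 24 libraries. The term passed an adjusted p of 0.05 for 6 of 9 members, against 18.3% of the 16089 genes tested. These were PPP1R3B (adjusted p = 1.34e-04), GBE1 (2.00e-04), GYS1 (2.42e-04), PYGL (0.00240), PGM1 (0.00288) and GYG1 (0.0408). The adjusted p was 0.0599 for PPP1R3C, 0.126 for PYGB and 0.250 for UGP2. PPP1R3C was at or near the floor in HCT116 and PC3 cells and allowed no fold change there. Its term therefore cannot say whether its effect differed among the 4 lines. With replicate numbers as a block the PYGB term passed (0.0223), which made 7 members, against 22.9% of all genes. Leaving a replicate number out of every group lowered the count to 3 members without replicate 1, 1 without replicate 2 and 5 without replicate 3, while the share of all genes went to 3.94%, 1.02% and 15.3%.

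The pairwise differences showed where the effects diverged. The rise of GBE1 was larger in HCT116 than in PC3 cells by 1.93 on the log2 scale (SE 0.28, adjusted p = 1.50e-04) and that of GYS1 by 1.81 (SE 0.26, adjusted p = 1.60e-04). HCT116 and PC3 cells differed in 4 of 9 members, all with the higher effect in HCT116, against 14.9% of all genes. PC3 and T47D cells also differed in 4 members, GYS1, GBE1, PGM1 and PYGL, all with the higher effect in T47D, against 2.25% of all genes. The hypoxia markers CA9, EGLN3, ADM and VEGFA likewise had their smallest fold changes in PC3 cells. For PYGL the T47D effect exceeded that of A549, HCT116 and PC3 cells (log2 differences of -1.19, -0.90 and -1.48 for the other line minus T47D, adjusted p = 0.0130, 0.0326 and 0.00174). PPP1R3B followed another division of the lines: its effect was larger in A549 than in PC3 cells by 1.49 (adjusted p = 0.00714) and than in T47D cells by 1.64 (adjusted p = 0.00152), whereas A549 and HCT116 cells differed by 0.033 (SE 0.28). A549 and HCT116 cells differed in 5 members (16.7% of all genes), A549 and PC3 cells in 1 (0.758%), A549 and T47D cells in 3 (2.11%) and HCT116 and T47D cells in 2 (9.07%). Each line enters 3 of these 6 comparisons, which are thus not independent.

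Normoxic levels differed between the lines for 9 of 9 members (adjusted p at most 5.23e-04), as they did for 93.8% of all genes. Between single pairs of lines 6 to 9 members differed: 6 between A549 and HCT116 (65.0% of all genes), 8 between A549 and PC3 (60.5%), 7 between A549 and T47D (67.7%), 6 between HCT116 and PC3 (66.0%), 6 between HCT116 and T47D (69.0%) and 9 between PC3 and T47D cells (68.1%). For GBE1 the order of mean levels was PC3 (131 ± 20.9 CPM), A549 (75.0 ± 6.63), HCT116 (24.9 ± 7.54) and T47D (16.4 ± 3.41), and each neighboring pair differed (adjusted p at most 0.00977). PGM1 had the same leading lines, PC3 at 174 ± 10.4 and A549 at 83.0 ± 7.12 CPM, while HCT116 (42.0 ± 16.4) and T47D (35.5 ± 10.7) did not differ beyond their spread (adjusted p = 0.306). GYS1 was highest in PC3 cells (66.4 ± 11.7 CPM), and the other 3 lines, between 32.4 ± 9.12 and 36.9 ± 7.20 CPM, did not differ from each other beyond their spread (adjusted p between 0.396 and 0.746).
GYG1 ran the other way, highest in T47D (99.3 ± 16.8 CPM) and HCT116 cells (83.3 ± 21.2), which did not differ beyond their spread (adjusted p = 0.228), then A549 (61.0 ± 6.96) and PC3 (42.2 ± 7.46), with each of the latter steps past the threshold (adjusted p = 0.0358 and 0.0160). UGP2 was highest in A549 cells (176 ± 11.3 CPM), with PC3 (122 ± 17.1) and HCT116 (112 ± 31.6) not distinguishable (adjusted p = 0.577) and T47D lowest (68.5 ± 5.92). PPP1R3B varied least, between 8.40 ± 1.89 CPM in PC3 and 16.3 ± 1.11 CPM in T47D cells, and no neighbors in its order differed beyond their spread (adjusted p = 0.252 for T47D and A549, 0.0866 for A549 and HCT116, 0.198 for HCT116 and PC3). Lines further apart in that order did differ (adjusted p = 2.04e-04 for PC3 and T47D, 0.00465 for A549 and PC3, 0.00550 for HCT116 and T47D). PYGL was lowest in T47D cells, at 13.3 ± 1.39 CPM against 75.2 ± 9.29 CPM in PC3, the next line (adjusted p = 2.73e-11), and HCT116 (151 ± 38.5) and A549 (126 ± 7.44) did not differ beyond their spread (adjusted p = 0.198). PYGB was highest in A549 (396 ± 64.0 CPM) and PC3 cells (324 ± 52.1), which did not differ beyond their spread (adjusted p = 0.236), followed by T47D (103 ± 30.9) and HCT116 (65.4 ± 11.1), which did (adjusted p = 0.00788).

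Across the 24 libraries the members did not share a single pattern. As a description, with libraries that share a line and an oxygen level and no test, Pearson's r of log2 CPM was 0.93 between GBE1 and PGM1, which ranked 14th of 16088 genes compared with GBE1, and -0.88 between GBE1 and GYG1. GYS1 had r values of 0.76 with PGM1, 0.72 with GBE1 and -0.76 with GYG1. The genes most like GYS1 were LOC143666 (r = 0.94), ZNF395 (0.93) and WASF2 (0.92), those most like GBE1 were MAP2K1, SND1 and NPC1 (all 0.96), and those most like PPP1R3C were GATA4 and TMEM47 (both 0.98) and ARHGDIG (0.98). ZNF395 and WASF2 were upregulated in all 4 lines, as were MAP2K1, SND1 and NPC1, and LOC143666 in A549, HCT116 and T47D but not PC3 cells (adjusted p = 0.0678). ZNF395 is in the study's core list, so its direction is not independent evidence. GATA4, TMEM47 and ARHGDIG, like PPP1R3C, were not tested in HCT116 and PC3 cells. TMEM47 was upregulated in A549 cells (log2 fold change 1.31, SE 0.26, adjusted p = 0.00279) and not called in T47D cells (adjusted p = 0.0729), while GATA4 and ARHGDIG were called in neither line.

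The rest of glycogen metabolism and its supply was covered by a list of 39 genes, also chosen with earlier results of these data known. Of these, 12 of 35 tested were upregulated and 3 downregulated in A549, 15 and 4 of 36 in HCT116, 9 and 3 of 35 in PC3 and 6 and 1 of 37 in T47D cells. Over all genes tested the upregulated and downregulated shares were 17.6% and 17.8% in A549, 23.3% and 27.0% in HCT116, 16.6% and 15.7% in PC3 and 6.55% and 6.69% in T47D cells. Those upregulated in all 4 lines were PPP1R3G, STBD1, HK1, HK2 and GPI, and no gene was called in opposite directions in 2 lines. HK2 and GPI are in the study's core list, as GBE1 is, so their direction is not independent evidence. PPP1R3G, another targeting subunit, had the largest folds among the targeting subunits (log2 fold change 2.48 in A549, 4.27 in HCT116, 1.80 in PC3 and 3.90 in T47D cells, adjusted p at most 0.00230) but low levels, between 1 and 6 counts in normoxic HCT116 and 1 and 5 in normoxic T47D libraries. STBD1, which tethers glycogen to membranes, rose by between 0.42 (A549) and 1.33 (T47D) on the log2 scale.
The hexokinases HK1 and HK2, which make glucose-6-phosphate, and GPI, which interconverts it with fructose-6-phosphate, stood at the branch between glycogen and glycolysis. HK2 rose by 4.60 on the log2 scale in A549 cells, from 1.89 ± 0.713 to 46.1 ± 5.86 CPM, and by 0.88 in PC3 cells, from 182 ± 44.5 to 347 ± 20.2 CPM. GPI rose by 3.44 in HCT116 and by 0.69 in PC3 cells, and HK1 by 2.86 in HCT116 and by 0.76 in T47D cells (adjusted p = 0.0490).
Some relatives of the members were absent or nearly so. PPP1R3A, the muscle targeting subunit, was at 0 counts in all 24 libraries, and GYS2, the liver synthase, at 0 in PC3 and T47D libraries. In HCT116 cells GYS2 was downregulated (log2 fold change -3.23, SE 0.84, adjusted p = 0.00648) at low levels. Its libraries there held between 12 and 57 counts in normoxia and between 0 and 9 in hypoxia. A549 libraries held between 1 and 23 counts of GYS2, which was not tested in that line. The second glycogenin gene, GYG2, was at 13.1 ± 2.99 CPM in normoxic and 16.5 ± 0.471 CPM in hypoxic A549 cells (log2 fold change 0.33, SE 0.16, adjusted p = 0.120) and at most 4 counts in any HCT116 or PC3 library. GAA, which degrades glycogen in lysosomes, was upregulated in A549, HCT116 and T47D cells (log2 fold changes 0.60, 0.96 and 0.995); GYG2 and GAA were chosen for mention after their values were seen.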

How the data were processed

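The 24 RNA-seq libraries came from 4 cell lines in normoxia and hypoxia, with 3 replicates per group. Group and replicate came from the sample labels. The authors prepared stranded poly(A) libraries, trimmed reads with Trim Galore, aligned them to GRCh37 with HISAT2, removed fragments without a unique position and deposited raw counts per gene symbol from HTSeq; versions in the submitters' processing notes are Trim Galore 0.3.3, HISAT2 2.05, Picard 2.0.1 and HTSeq 0.5.4p3, and the strand setting is not given in the sources used here.

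Computed here, fold changes came from edgeR 4.0.16 in R 4.3.3 (filterByExpr, TMM, quasi-likelihood test), fitted per line over all genes, with Benjamini-Hochberg adjustment over the genes tested. A gene was called with a fold change over 1.2 at an adjusted p under 0.05. Interactions and normoxic levels were tested in a single fit of 8 groups. Printed CPM use a common TMM scaling of all 24 libraries, and correlations a prior count of 2. Lengths and positions come from GENCODE for GRCh37, in which 21588 of 23106 symbols (93.4%) were matched, and promoters from RefSeq. The scripts were tested on simulated data.

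The members and the lists of other genes and markers were chosen with earlier results of these data known. Named genes are all members, other pathway genes called in all 4 lines, called in opposite directions or not detected, and the 3 genes most like GYS1, GBE1 and PPP1R3C. Other pathway genes named (GYG2, GAA and those of the kinase, phosphatase and UDP-sugar groups) fall outside this rule and were chosen after their values were seen. Replicate numbers in the labels are shared by both oxygen levels. Same-numbered libraries deviated together with r over 0.1, the cut set here, for every number in PC3 (0.104 to 0.132) and T47D cells (0.202 to 0.300). Replicate 3 fell below the cut in A549 (-0.002) and HCT116 cells (0.082). The mean same-number r was 0.122 in A549, 0.221 in HCT116, 0.117 in PC3 and 0.255 in T47D cells. For unlike numbers the means were -0.062, -0.109, -0.060 and -0.118 in the same order. Deviations were taken from the group mean, which ties these values to the same-number r, so they are not a separate contrast. This check therefore does not set PC3 apart from A549 or HCT116 cells. T47D cells passed the cut for every number by a wider margin, but the main tests used no pairing in any line. With the replicate number as a block, 1281 genes rose and 1485 fell in T47D cells, against 922 and 942 in the main fit. As alternatives, the replicate number entered as a block, each library was left out in turn, a spline with 5 degrees of freedom removed the trend with GC content and length, and all libraries shared a fit. Further ones were DESeq2 1.42.0 in place of edgeR, size factors by RLE or by total counts, a filter at a mean count of 50 or none, and testing for more than a 1.2-fold change.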

Additional observations from a re-analysis of the deposited data

Results flagged for a closer look

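For 6 of the 9 genes the hypoxia effect differed between the 4 cell lines, by the interaction of cell line and oxygen in edgeR's fit of all 24 libraries, adjusted over all 16089 genes tested, of which 18.3% passed. PPP1R3B had the smallest value of the 6 (adjusted p = 1.34e-04), with log2 fold changes of 1.94 in A549 and 1.80 in HCT116 cells against 0.41 in PC3 and 0.22 in T47D cells, of which the last 2 were not called. GBE1 (adjusted p = 2.00e-04) ranged from 0.85 in PC3 to 2.73 in HCT116 cells and GYS1 (adjusted p = 2.42e-04) from 0.61 in PC3 to 2.34 in HCT116 cells, rising in 12 of 12 hypoxic libraries relative to every normoxic library of the same line. PYGL (adjusted p = 0.00240) had its lowest effect in PC3 cells (0.47) and its highest in T47D cells (1.91). PGM1 (adjusted p = 0.00288) ranged from 0.77 in PC3 to 2.13 in T47D cells. The hypoxia markers CA9, EGLN3, ADM and VEGFA also had their smallest fold changes in PC3 cells. GYG1 (adjusted p = 0.0408) was at -1.26 in HCT116 cells and at -0.22 in A549 cells, where it was not called. Groups of 3 libraries are too small for a search for single libraries that stand apart.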

How the results depend on the processing

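Over all lines and settings, 544 alternative values of the members were computed: 512 kept their direction and side of the threshold, 20 lost a call, 4 gained one and 8 changed sign, all of the last for UGP2 where it was not called. The causes were not tested. UGP2 turned to -0.091 in A549 cells with scaling to total counts, to 0.18 in PC3 and 0.045 in T47D cells with the GC content and length correction without a block and to 0.19 and 0.047 with it, and leaving out single libraries gave between -0.025 and 0.11 in A549 and between -0.16 and 0.056 in PC3 cells. The count of downregulated members in HCT116 cells was 1 in place of 2 in the test against a fold change of 1.2 and with the GC content correction (with or without the block), and between 1 and 2 with single libraries left out. Of the 13614 genes tested in that line, 3676 were downregulated in the main fit and 3238 in the test against 1.2. The correction gave 2941 without and 3503 with the block, and leaving out single libraries gave between 2719 and 3357. In PC3 cells 3 members rose and 0 fell in a single fit of all 24 libraries, where 867 and 425 of all 16089 genes did. The main fit of that line called 2237 genes upregulated and 2109 downregulated of 13466. In T47D cells 0 members fell with the GC content correction without a block, and between 0 and 1 with single libraries left out. Over all genes, 811 fell in T47D cells with that correction and between 19 and 1756 with single libraries left out, against 942 in the main fit. The interaction of cell line and oxygen passed for between 1 and 5 members when a replicate number was left out, and for between 1.02% and 15.3% of all genes. With the replicate block it passed for 7 members, PYGB being added (adjusted p = 0.0223), against 22.9% of all genes. The block changed no other call of a member: 6 members rose in A549, 6 in HCT116, 5 in PC3 and 6 in T47D cells. Over all genes 2507, 3653, 2349 and 1281 rose with the block, in the same order. Across all genes tested, the median log2 fold change went from -0.012 to -0.13 in A549 and from -0.015 to -0.12 in T47D cells with scaling to total counts, and the member median to 0.80 and 1.82. Counts of 0 to 4 in HCT116 and PC3 libraries leave PPP1R3C changes there not detectable at this depth, and 3 libraries per group limit the precision of every fold change.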

Other observations

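The kinases that phosphorylate glycogen synthase and the kinase that activates phosphorylase were counted as further groups. Of 5 synthase kinases, 2 were upregulated in A549, 4 in HCT116, 2 in PC3 and 0 in T47D cells (at an unadjusted p under 0.05 in edgeR's test, 3 were higher in hypoxia and 1, PASK, lower, with a log2 fold change of -0.89). GSK3B, the beta form of glycogen synthase kinase, had log2 fold changes of 0.51 in A549, 1.06 in HCT116 and 0.58 in PC3 cells, all called, and 0.59 in T47D cells, not called (adjusted p = 0.0912). Of the 5 phosphorylase kinase subunits, 0 were upregulated and 1 downregulated of 4 tested in A549, 1 and 2 of 5 in HCT116, 0 and 0 of 5 in PC3 and 0 and 1 of 5 in T47D cells, where the shares of all genes were 17.6% and 17.8%, 23.3% and 27.0%, 16.6% and 15.7%, and 6.55% and 6.69%. In HCT116 cells PHKA1, a regulatory subunit, was upregulated (log2 fold change 0.70, adjusted p = 0.00858) and PHKG1, a catalytic subunit, was downregulated (-3.64, adjusted p = 6.13e-04), with between 31 and 50 counts in normoxic and between 2 and 4 in hypoxic libraries. In PC3 cells PHKG1 was the 1 subunit at an unadjusted p under 0.05 (-1.43, edgeR adjusted p = 0.0681). PHKG2, another catalytic subunit, was downregulated in A549, HCT116 and T47D cells (log2 fold changes -0.38, -0.80 and -0.72) and at -0.24 in PC3 cells (adjusted p = 0.155). The catalytic subunits of protein phosphatase 1, PPP1CA, PPP1CB and PPP1CC, gave 0 calls by edgeR's test in the 4 lines, with 0 of 12 values at an unadjusted p under 0.05. Of the genes of UDP-sugar metabolism, GALT was downregulated in A549 (-0.42) and HCT116 cells (-0.85) and UGGT1 upregulated in the same lines (0.54 and 0.92). The genes named here were chosen after their values were seen.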
